A study of Homo sapiens with 6 samples.

Results

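A pair of genes with clone-derived names, AC007192.1 and AC090527.2, had counts in 1 group of libraries only, and each lies across 2 neighbouring genes on its own strand: PIK3R2 and IFI30 on chromosome 19, and BLOC1S6 and SQOR on chromosome 15. These 6 genes, of 17042 in the table, are described here. The clone-named genes were picked because their counts were all in the control group or all in the knockdown group, so their own difference is given as a description, with no test. The other 4 were taken by position alone, but share sequence with the clone-named genes. The question was whether counts had moved between genes that overlap.

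The study measured messenger RNA in THP1, a human monocytic leukaemia line, in 2 groups of 3 libraries. The knockdown (KD) libraries came from THP1 macrophages given small interfering RNA against the long noncoding RNA RP11-184M15.1, carried by a lipid reagent before IL-4. The control libraries were labelled as wild type, and the labels do not say what those cells received. Both groups had been held for 24 hours with the phorbol ester PMA at 100 ng/mL, which turns THP1 cells into macrophages, and then for 24 hours with IL-4 at 20 ng/mL. The labels do not say that replicates were separate cultures. The p-values therefore reflect how far these 6 libraries differ, and part or all of that spread may be technical. Being bulk samples of 1 line, they cannot tell fewer cells from less RNA per cell.

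The KD libraries held 12029360 to 14181343 counts and the control libraries 10450043 to 12113848. No row carried the name RP11-184M15.1, and the level of the silenced RNA was not analysed here. All 8 monocyte and macrophage markers were present, with summed levels of 4510 to 4720 CPM (counts scaled to library size with TMM factors) in KD and 4550 to 4830 CPM in control libraries. The means of these 8 ran from 2.1 to 1730 CPM. None of the 3 T-cell markers was in the table. Of 3 B-cell, 3 epithelial and 3 fibroblast markers, 2, 1 and 2 were in it. Their sums were at most 1.68, 0.385 and 7.37 CPM in any library. The 2 fibroblast markers, COL1A1 and PDGFRA, had means from 1.9 to 3.69 CPM, near the lowest macrophage marker.

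A readthrough transcript arises when RNA polymerase runs past the end of a gene and the RNA is spliced into the next gene. Most of its sequence then equals that of both genes. A program such as Salmon shares reads among the transcripts they fit. It can tell a readthrough transcript apart mainly through that transcript's own joins or any exons of its own. PIK3R2 encodes p85-beta, a regulatory subunit of phosphoinositide 3-kinase. IFI30 encodes GILT, a lysosomal thiol reductase induced by interferon gamma that breaks disulfide bonds of proteins taken up for presentation on MHC class II. BLOC1S6 encodes pallidin, a subunit of BLOC-1, a complex that builds lysosome-related organelles. SQOR encodes the mitochondrial sulfide:quinone oxidoreductase, which carries out the opening step of hydrogen sulfide oxidation.

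In the GENCODE 29 annotation on GRCh38, AC007192.1 (ENSG00000268173.3) runs from 18153158 to 18178117 on the plus strand of chromosome 19. It covers PIK3R2 (ENSG00000105647.16, 18153118 to 18170540) and IFI30 (ENSG00000216490.3, 18173162 to 18178117), which are 2621 bases apart. Its single transcript has 25 exons, of which 16 overlap exons of PIK3R2, 7 overlap exons of IFI30 and 2 overlap neither. The transcript carries a stop codon in exon 16, still within PIK3R2, and is annotated as a target of nonsense-mediated decay, the pathway that destroys RNAs with a stop codon ahead of later exon joins. AC090527.2 (ENSG00000260170.1) runs from 45587351 to 45676314 on the plus strand of chromosome 15. Its single transcript has 6 exons, the first within BLOC1S6 (ENSG00000104164.10, 45587123 to 45615999) and the other 5 overlapping exons of SQOR (ENSG00000137767.13, 45631148 to 45691294). Its annotated start codon lies in exon 2, which is a SQOR exon, and BLOC1S6 and SQOR are 15148 bases apart.

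**Figure D1:**
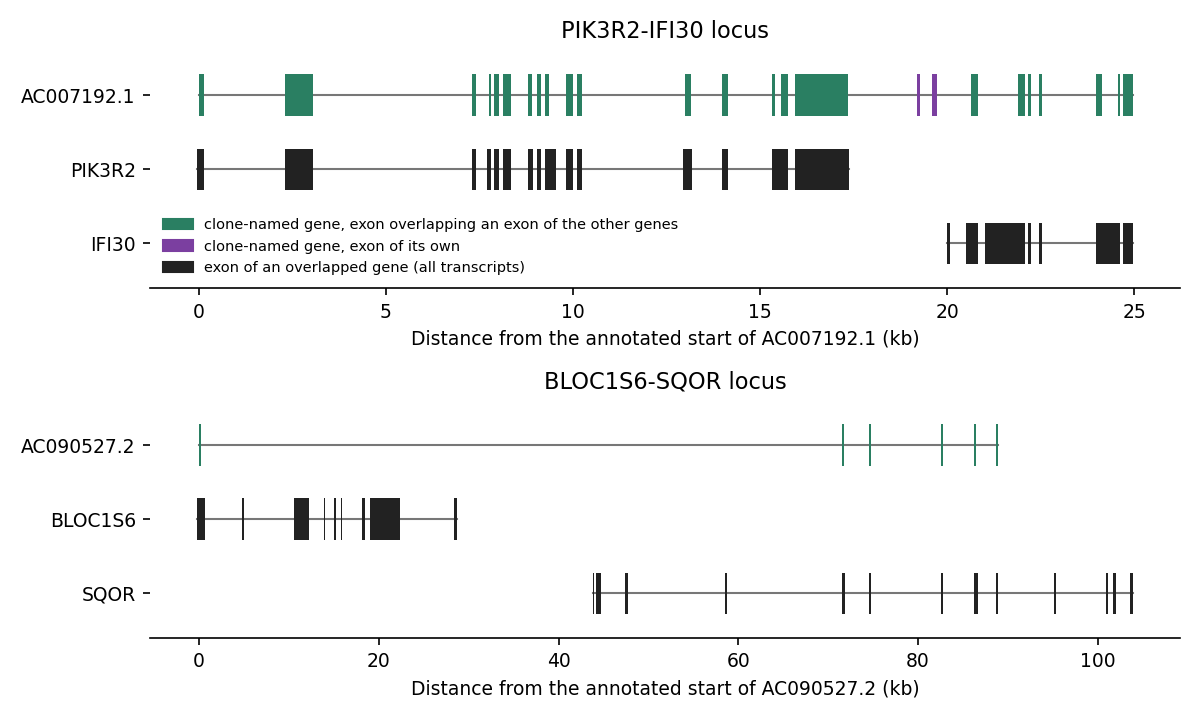
Exons of the clone-named genes and of the genes they overlap, as boxes along the distance in kb from the annotated start of the clone-named gene (all genes run left to right). AC007192.1 has 2 exons of its own, in the gap between PIK3R2 and IFI30, while AC090527.2 joins the first exon of BLOC1S6 to exons of SQOR.

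Nearly all of the sequence of the clone-named genes was shared. Of the 5142 exonic bases of AC007192.1, 76.8% lay in exons of PIK3R2 and 19.4% in exons of IFI30, which left 198 bases in its own 2 exons. Of its 5112 words of 31 bases, the default word length of Salmon's index, 226 occurred in no other annotated gene, all of them at the joins around those exons or within them. Of the 1060 exonic bases of AC090527.2, 83.1% lay in exons of SQOR and 16.5% in exons of BLOC1S6. Only 29 of its 1030 words occurred in no other annotated gene. A read could therefore tell AC090527.2 from its neighbours almost solely at the join of its exons 1 and 2.

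The joins are shown because, apart from exons 17 and 18 of AC007192.1, they are where the clone-named transcripts mainly differ from the overlapped ones. Each line gives 15 bases before the join in lower case and 15 after it in capitals, 5′ to 3′ on the plus strand, from the GENCODE 29 transcripts on GRCh38.
AC007192.1 exon 16 to exon 17: ggcaggttttgtacgGGCTGGTGCCTGGTA
AC007192.1 exon 17 to exon 18: cccacccggcataggGCTATTCTCTCTGCC
AC007192.1 exon 18 to exon 19: tctgagccctccatgGCAGCCGCTGCAGTC
IFI30 at the same acceptor: tcccacgggaccacgGCAGCCGCTGCAGTC
AC090527.2 exon 1 to exon 2: gggagccgacgcctgCCTGATCCTGCCTGA
BLOC1S6 at the same donor: gggagccgacgcctgGTTTAAGTGACACTT
SQOR at the same acceptor: tccgctcacgcccggCCTGATCCTGCCTGA
The bases after exon 18 of AC007192.1 are those that follow the same acceptor in IFI30-202, at 18173804. The join of AC090527.2 takes its left side from the BLOC1S6 donor at 45587525 and its right side from the SQOR acceptor at 45658907. No transcript of PIK3R2 is annotated with a join at the end of exon 16 of AC007192.1, at 18170494.

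AC007192.1 had 0, 0 and 0 counts in KD libraries 1, 2 and 3, against 13, 14 and 13 counts in control libraries 1, 2 and 3. The controls lay close together, at 1.22 ± 0.0404 CPM (SD, n = 3), a smaller spread than the exact Poisson 95% interval of 1 library, which is 6.92 to 22.2 for 13 counts. Taking 3 counts per library as the floor for a library at 0, the level was at least 5.22-fold lower in KD libraries. AC090527.2 showed the opposite pattern and was far less even, with 18, 74 and 85 counts in KD libraries 1, 2 and 3 and 0, 0 and 0 in control libraries 1, 2 and 3. It averaged 4.54 ± 2.82 CPM in KD libraries (SD, n = 3), 16.6-fold the floor in the controls. KD libraries 2 and 3 stood well above KD library 1, with a 4.79-fold range in CPM and exact Poisson 95% intervals of 10.7 to 28.4 counts for KD library 1 and 58.1 to 92.9 for KD library 2. Intervals and floors here cover counting error only. The folds leave out the error of the mean, and the exact Poisson 95% upper limit for 0 counts is 3.69.

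**Figure D2:**
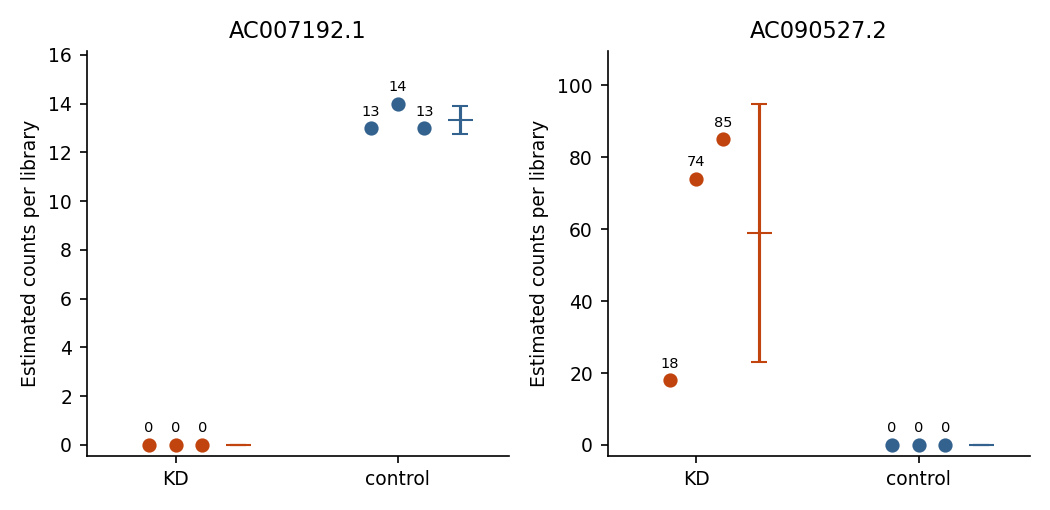
Estimated counts of the clone-named genes (y axis, counts) in each library (points, KD left of control), with the mean and SD of 3 libraries beside them. AC007192.1 is at 0 in every KD library and at 13 or 14 in the controls, and AC090527.2 is at 18 to 85 in KD libraries and at 0 in every control.

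Both genes were a small part of their locus. The shares are given with their counting error as a description, since the zeros chose the genes. Set against the upstream gene, AC007192.1 took 0 of the 497, 557 and 447 counts of the pair AC007192.1 and PIK3R2 in KD libraries 1, 2 and 3. The upper limits of the exact Clopper-Pearson 95% intervals there were 0.74%, 0.66% and 0.82%. In control libraries 1, 2 and 3 it took 3.80%, 3.12% and 3.22% (exact Clopper-Pearson 95% intervals 2.04% to 6.41%, 1.72% to 5.18% and 1.72% to 5.44%). AC090527.2 took 1.33%, 4.72% and 6.33% of the counts of the pair AC090527.2 and BLOC1S6 in KD libraries 1, 2 and 3 (intervals 0.792% to 2.10%, 3.73% to 5.89% and 5.09% to 7.77%). In control libraries 1, 2 and 3 it took 0, with upper limits of the same intervals at 0.31%, 0.32% and 0.34%. Of the whole locus, AC007192.1 made up 0.0399% to 0.0442% of the counts in control libraries and AC090527.2 made up 0.354% to 1.71% in KD libraries.

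Per kilobase of transcript, IFI30 stood far above the other members, at 2581 ± 118 CPM per kb in KD and 2509 ± 47.1 CPM per kb in control libraries (SD, n = 3 each; longest protein-coding transcript). SQOR followed at 150 ± 1.56 CPM per kb in KD and 167 ± 7.89 in control libraries, then BLOC1S6 at 26.1 ± 0.590 and 25.9 ± 1.92. PIK3R2 had 9.59 ± 0.448 CPM per kb in KD and 8.69 ± 0.864 in control libraries. AC090527.2 came next at 4.29 ± 2.66 CPM per kb in KD libraries, and AC007192.1 was lowest at 0.237 ± 0.00785 CPM per kb in controls. Neighbours in this order lay apart by more than their spread in the groups where they had counts.

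In the edgeR quasi-likelihood fit over all genes, 2.83% of 13405 genes tested were called at an adjusted p under 0.05, and 0 of the 4 overlapped genes were. At an unadjusted p under 0.05, 1 of the 4, SQOR, had a lower level in KD in edgeR, DESeq2 and limma-voom, as had 8.21%, 5.54% and 8.15% of all genes tested in these tools. DESeq2 and limma-voom called 0 of the 4 at an adjusted p under 0.05. All 6 members passed the filter on low counts, the clone-named genes through the group that held their counts.

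PIK3R2 had 40.3, 39.1 and 36.7 CPM in KD libraries 1, 2 and 3, against 31.1, 36.4 and 37.6 CPM in control libraries 1, 2 and 3. The groups overlapped, and control library 1 was the lowest of the 6. Its log2 fold change was 0.14 ± 0.08 (SE; edgeR adjusted p = 0.416). AC007192.1 amounted to 1.22 CPM in the controls, less than the SD of PIK3R2 in either group, 1.81 CPM in KD and 3.49 CPM in control libraries. With the counts of AC007192.1 added to PIK3R2, the log2 fold change was 0.09 (edgeR adjusted p = 0.633).

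IFI30 had 2917, 3066 and 2799 CPM in KD libraries 1, 2 and 3 and 2839, 2901 and 2795 CPM in control libraries 1, 2 and 3. The groups overlapped, and KD library 2 was the highest. Its log2 fold change was 0.04 ± 0.04 (SE; edgeR adjusted p = 0.736). The SD of IFI30 between libraries, 134 CPM in KD and 53.4 CPM in controls, was far above the level of AC007192.1. A transfer of that size could not be seen in IFI30 against this spread. The locus as a whole, the 3 genes summed, had a log2 fold change of 0.04 ± 0.04 (SE; edgeR adjusted p = 0.73; exact two-sided permutation p = 0.4, with 0.1 the smallest possible).

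BLOC1S6 had 107.9, 104.7 and 103.2 CPM in KD libraries 1, 2 and 3, against 112.6, 97.2 and 103.9 CPM in control libraries 1, 2 and 3. All KD values lay inside the range of the controls. Its log2 fold change was 0.01 ± 0.06 (SE; edgeR adjusted p = 0.954), and its sign turned when control library 2 or KD library 1 was left out (log2 fold changes of -0.04 and -0.01). Within the KD libraries BLOC1S6 was highest where AC090527.2 was lowest, in library 1. Their sum was nearly level there, at 109.3, 109.9 and 110.2 CPM in KD libraries 1, 2 and 3, with an SD of 0.435 CPM against 2.38 CPM for BLOC1S6 alone. Adding AC090527.2 to SQOR in place of BLOC1S6 narrowed the spread in KD libraries as well, to an SD of 1.67 CPM against 3.12 CPM for SQOR alone. These are 3 libraries, and the smaller spreads were noticed in the data and not tested. In the controls, where AC090527.2 was at 0, the SD of BLOC1S6 was 7.75 CPM, so levels there varied by more than the counts in question. With the counts of AC090527.2 added to BLOC1S6, its log2 fold change was 0.07 (edgeR adjusted p = 0.605).

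SQOR had 303.0, 302.0 and 297.2 CPM in KD libraries 1, 2 and 3, against 346.5, 339.0 and 316.1 CPM in control libraries 1, 2 and 3. The groups did not overlap, as in 20% of all genes tested, and control library 3 lay nearest to the KD libraries. The log2 fold change was -0.15 ± 0.05 (SE), with an edgeR unadjusted p of 0.00447 and adjusted p of 0.0962. Without control library 3 the log2 fold change was -0.19 and the edgeR adjusted p was 0.0234, of the settings run the sole one in which an overlapped gene passed. The mean difference, -33.2 CPM, was several times the 4.54 CPM of AC090527.2 in the KD libraries. Adding those counts back to SQOR left a log2 fold change of -0.13 (edgeR adjusted p = 0.16). The sum of the BLOC1S6, AC090527.2 and SQOR rows had a log2 fold change of -0.09 ± 0.04 (SE; edgeR adjusted p = 0.328), with the exact permutation p at 0.1, the smallest possible. These sums include the clone-named genes, which were chosen on the same contrast.

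**Figure D3:**
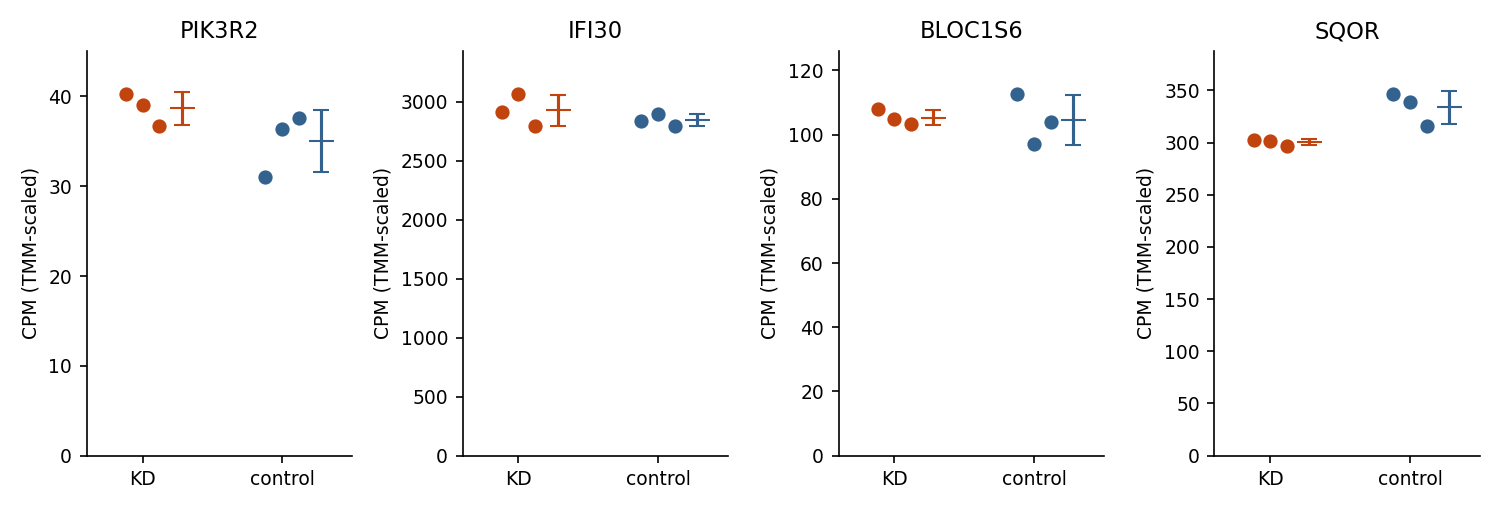
Level of the 4 overlapped genes (y axis, TMM-scaled CPM from 0) in each library (points, KD left of control), with mean and SD of 3 libraries. KD and control libraries overlap for PIK3R2, IFI30 and BLOC1S6, and the SQOR values of KD libraries, 297.2 to 303.0 CPM, lie below the lowest control at 316.1 CPM.

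The genes around both loci did not pass the threshold either. Of 21 genes of the table that began or ended within 250 kb of a locus, 19 were tested and 0 passed in edgeR, DESeq2 or limma-voom. In edgeR 2.83% of all genes tested passed, and 0 of 19 is close to that share. At an unadjusted p under 0.05, 3 of the 19 had higher values in KD in edgeR (MAST3, GDF15 and LRRC25), as had 6.89% of all genes tested. The same 3 met that level in limma-voom (6.91% of all genes tested) and MAST3 alone did in DESeq2 (4.37%). MAST3, a microtubule-associated kinase gene that ends 1426 bases before the PIK3R2 locus, had 36.2 ± 0.252 CPM in KD and 30.7 ± 2.90 CPM in control libraries (SD, n = 3 each), with a log2 fold change of 0.24 and an edgeR adjusted p of 0.121. GDF15, which encodes a stress-induced cytokine, had a log2 fold change of 0.26 (edgeR adjusted p = 0.261). LRRC25, a leucine-rich repeat membrane protein gene, had one of 0.19 (edgeR adjusted p = 0.324). The lowest value was that of KCNN1, a calcium-activated potassium channel gene, at -0.21 (edgeR adjusted p = 0.65). The median log2 fold change of the 19 was 0.04 in edgeR, against -0.002 over all genes tested, and its sign turned in limma-voom (-0.006).

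**Figure D4:**
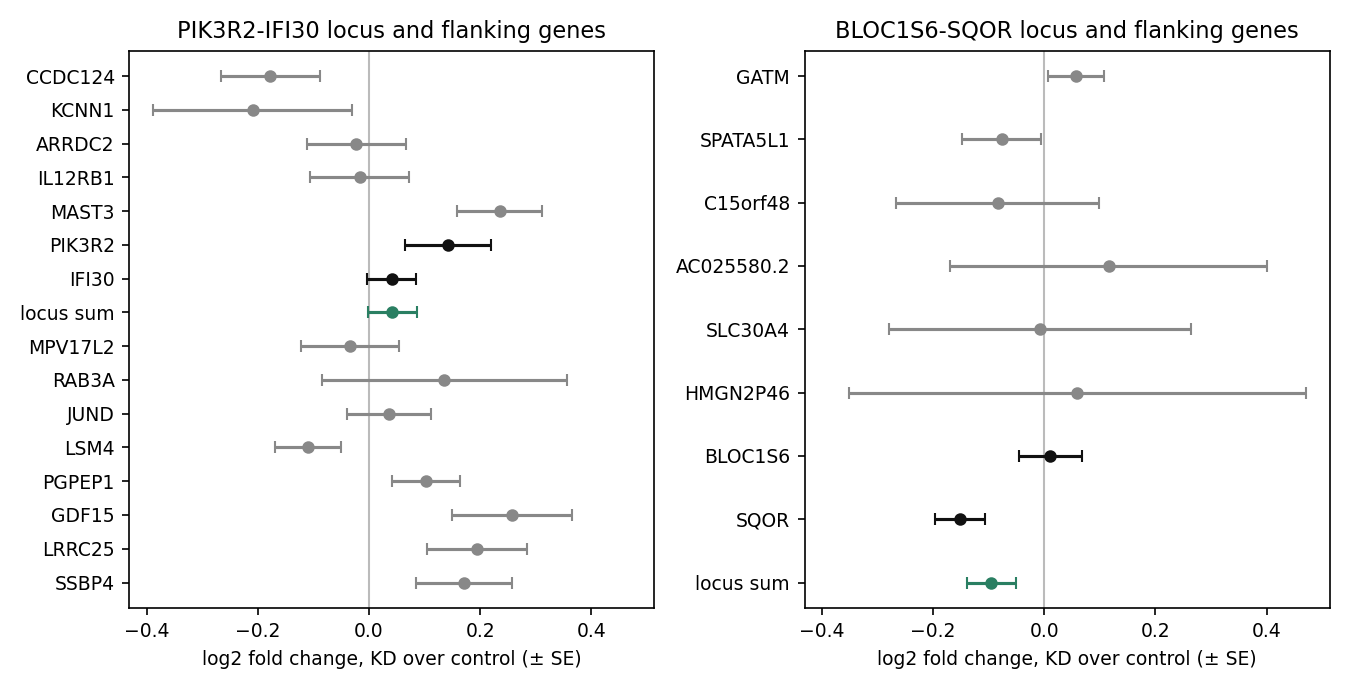
Log2 fold change of KD over control (x axis, points, bars ± SE) for the overlapped genes (black), the sum of each locus (green) and the flanking genes tested (grey), in genomic order from top to bottom. SQOR at -0.15 and MAST3 at 0.24 are farthest from 0 relative to their errors, and neither passed an adjusted p of 0.05.

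The partners of the 4 overlapped genes in their pathways were also looked at. In edgeR 2.83% of all genes tested passed, so 0 in a list of 8 or 9 genes is close to that share. Of the 8 BLOC-1 subunits, 0 passed in edgeR, DESeq2 or limma-voom, and the median log2 fold change in edgeR was 0.005. At an unadjusted p under 0.05, DTNBP1 (dysbindin) alone had a higher level in edgeR (as had 6.89% of all genes tested) and limma-voom (6.91%). None of the subunits did in DESeq2. The log2 fold change of DTNBP1 was 0.33 (edgeR adjusted p = 0.283). Subunit BLOC1S5 had a log2 fold change of -0.24 and BLOC1S2 one of -0.08. Of 9 class I PI3K genes 0 passed, with a median of 0.004 (-0.02 without PIK3R2), and 3 of the 8 other than PIK3R2 had an unadjusted p under 0.05 in edgeR, DESeq2 and limma-voom alike, a level that in edgeR 6.89% of all genes tested met with higher and 8.21% with lower values in KD. These were PIK3R3, another regulatory subunit (log2 fold change -0.26, edgeR adjusted p = 0.104), PIK3CD, the leukocyte catalytic subunit p110-delta (0.15, edgeR adjusted p = 0.261), and PIK3R5, the regulatory subunit of the gamma kinase (0.14, edgeR adjusted p = 0.125). Of 8 genes for lysosomal reductase and proteases that process antigen, IFI30 among them, 0 passed and the median was -0.03. Cathepsin Z (CTSZ) had an unadjusted p under 0.05 in edgeR, DESeq2 and limma-voom, with a log2 fold change of -0.14 (edgeR adjusted p = 0.131). Lower values in KD at that level were seen in 8.21%, 5.54% and 8.15% of all genes tested in these tools. LGMN (0.12) and CTSB (-0.06) were the next farthest from 0.

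Of 7 genes of sulfide and sulfur amino acid metabolism, 1 passed in edgeR, higher in KD (background 1.22% of genes tested called higher), and the median log2 fold change was 0.23. It was CBS, cystathionine beta-synthase, which makes cystathionine and can release hydrogen sulfide. CBS averaged 48.5 ± 1.61 CPM in KD and 40.9 ± 1.83 CPM in control libraries (SD, n = 3 each). Its log2 fold change was 0.24 with an SE of 0.06, at an edgeR adjusted p of 0.049. The call was lost in DESeq2 (adjusted p = 0.0887), in limma-voom (0.0556), without the filter (0.0655) and when any 1 library was left out (edgeR adjusted p 0.0505 to 0.235). ETHE1, the sulfur dioxygenase that follows SQOR in mitochondria, had a log2 fold change of 0.26 (edgeR unadjusted p = 0.00943, edgeR adjusted p = 0.143). TST, a sulfurtransferase, had one of 0.23 (edgeR adjusted p = 0.447). CBS and ETHE1, 2 of the 6 genes other than SQOR, had an unadjusted p under 0.05 in edgeR, DESeq2 and limma-voom. In edgeR 6.89% of all genes tested met that level with higher values in KD.

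Counts in every library of 1 group and 0 in every library of the other were rare: 14 of 17042 genes, 0.0821%, of which 10 had counts in KD only (0.0587%) and 4 in control only (0.0235%). AC090527.2 had the most counts of the 14, with 177 over the 6 libraries, and AC007192.1 came after HBA1 with 40. HBA1, an alpha-globin gene, had 1, 2 and 89 counts in KD libraries 1, 2 and 3, most of them in 1 library, and 0 in controls. AC002310.5 had 0 in KD and 11, 19 and 7 counts in control libraries 1, 2 and 3, and NPIPA2, of a multigene family whose copies share reads, had 13, 14 and 2 counts in KD libraries and 0 in controls. At the edge of the pattern, AC092143.4 had 10 counts in all, and just outside it AP003419.2 had 47, 86 and 0 counts in KD libraries and 0 in controls, while AC005832.4 had 0 in KD and 42, 0 and 10 counts in control libraries. The genes with the pattern of AC007192.1, counts in controls only, were AC002310.5, RPL23AP60 and AC004997.1, each at 0 in all 3 KD libraries.

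In the table, 224 genes shared exonic bases on their own strand with at least 2 separate protein-coding genes, and 5 of them were among the 14: AC007192.1, AC090527.2, AC002310.5, AC004997.1 and AL139353.1. That is 35.7% of the 14, where the class holds 224 of the 17042 genes, and 2.23% of the 224, against 0.0821% of all genes. AC007192.1 and AC090527.2 were chosen for this pattern, so their place among the 5 follows from the choice. The 5 members of the class with the most counts, MAN2B1, MT-ATP6, TYMP, RNF4 and LTV1, had log2 fold changes of -0.20 to 0.05 with none past the threshold. Apart from AC007192.1 and AC090527.2, 131 of the class were tested and 5 passed in edgeR, 3.82% against the 2.83% of all genes tested. ANKHD1-EIF4EBP3, AP002990.1 and CLDN12 were higher in KD, and AC002996.1 and AC091959.3 were lower.

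In the same class, zeros also stood beside counts within a group. Of the 180 such genes that reached 10 counts in some library, 58 (32.2%) were at 0 in another, against 160 of 14175 (1.13%) for all other genes, a description with no test. Among genes with under 200 counts in all, a limit chosen after the data were seen, these shares were 53.0% (53 of 100) and 5.07% (151 of 2976). In 48 of the 58 the 0 and the count of at least 10 lay in the same group, and 42 had counts in both groups. Just 4 of the 58 were at 0 in exactly the 3 libraries of 1 group. AC007192.1 and AC090527.2, chosen for their zeros, are counted in the 58, the 53 and the 4, but not in the 48.

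**Figure D5:**
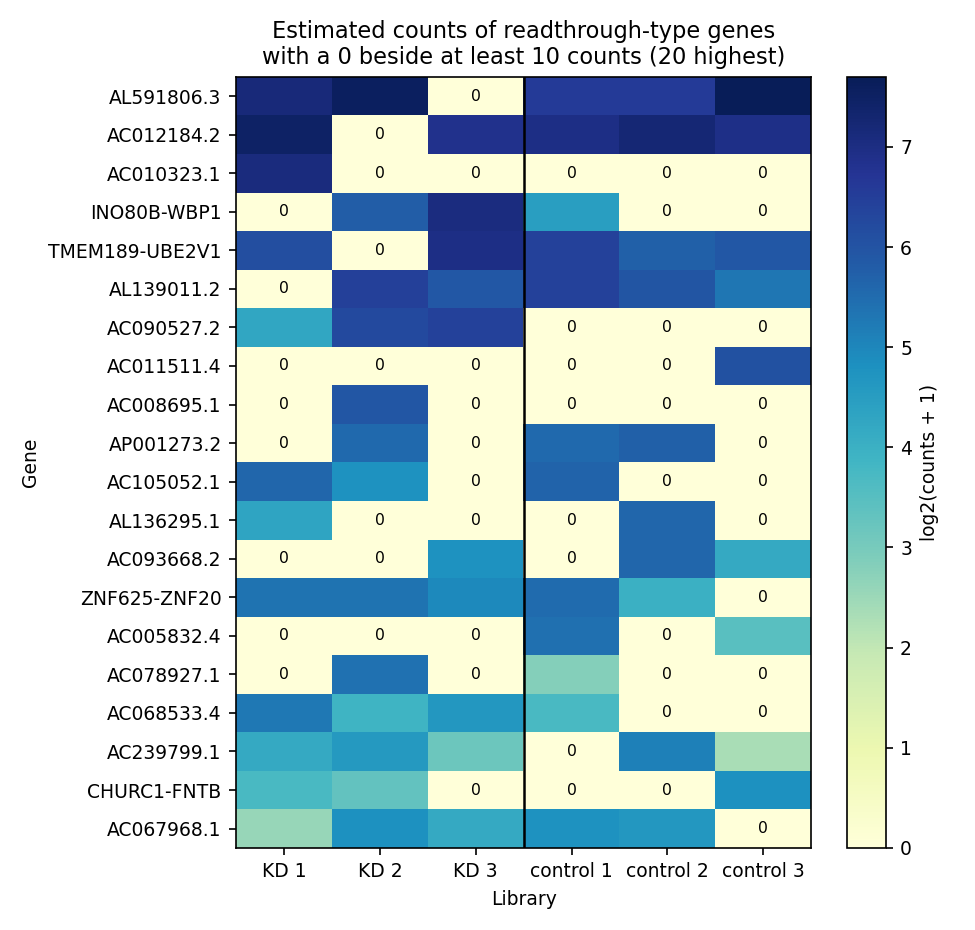
Colour shows log2(counts + 1) of the 20 genes with the highest counts among the 58 that overlap at least 2 protein-coding genes and stand at 0 in a library (marked 0) beside at least 10 counts in another. Columns are the 3 KD libraries and then the 3 controls. AC090527.2 is the sole gene of the 20 with counts in every KD library and 0 in every control, and in 48 of the 58 the 0 and the count of at least 10 lie in the same group.

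In 5 of these genes, with over 100 counts in a library and 0 in another of the same group, the overlapped genes could be followed. They were chosen after their values were seen. AC012184.2 had 177, 0 and 115 counts in KD libraries 1, 2 and 3, and DDX19A, an RNA helicase gene it overlaps, had 43.7, 56.5 and 44.9 CPM there. In control libraries 1, 2 and 3 AC012184.2 had 124, 148 and 122 counts and DDX19A 47.8, 45.9 and 42.6 CPM, so that DDX19A was highest of the 6 in the library with 0. DDX19B, its other partner, did not follow, with 25.0, 26.5 and 29.1 CPM in KD and 22.9, 28.4 and 24.6 CPM in control libraries 1, 2 and 3. AL591806.3 had 140, 189 and 0 counts in KD libraries 1, 2 and 3, and F11R, which encodes a junctional adhesion molecule, had 102.4, 104.5 and 118.2 CPM. In control libraries 1, 2 and 3 AL591806.3 had 94, 95 and 207 counts and F11R 124.6, 119.3 and 104.4 CPM. F11R was thus above its level in the library with 0 in 2 controls that had counts. INO80B-WBP1 had 0, 54 and 132 counts in KD libraries 1, 2 and 3, with INO80B, a chromatin remodelling subunit, at 6.40, 5.89 and 1.81 CPM and WBP1 at 14.1, 11.3 and 8.46 CPM. In control libraries 1, 2 and 3 the joined gene had 21, 0 and 0 counts, with INO80B at 4.44, 5.86 and 6.16 CPM and WBP1 at 13.8, 14.8 and 14.6 CPM. Both partners were lowest of the 6 in the library where the joined gene had most counts.

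AC010323.1 had 136 counts in KD library 1 and 0 in the other 5 libraries, and NDUFA7, a subunit of respiratory complex I, had 17.0 CPM in KD library 1 against 28.6 and 26.4 CPM in KD libraries 2 and 3. NDUFA7 had 25.4, 27.0 and 26.9 CPM in control libraries 1, 2 and 3. CD320, its other partner, had 5.43, 5.40 and 6.57 CPM in KD and 7.37, 8.63 and 7.31 CPM in control libraries 1, 2 and 3. TMEM189-UBE2V1 had 69, 0 and 123 counts in KD libraries 1, 2 and 3, and TMEM189 had 61.2, 65.7 and 59.5 CPM and UBE2V1 158.4, 159.3 and 143.0 CPM. In control libraries 1, 2 and 3 the joined gene had 85, 52 and 59 counts, TMEM189 59.0, 63.7 and 66.6 CPM and UBE2V1 139.4, 149.3 and 139.4 CPM. TMEM189 was higher in control library 3, with 59 counts of the joined gene, than in KD library 2, with 0. Within the KD libraries, each of the 5 had an overlapped gene higher wherever the joined gene was at 0 than where it had counts. This view of 3 libraries and the partners that follow in it were picked after the values were seen, so it is a description only. The overlapped genes that did so were DDX19A, F11R, INO80B, WBP1, NDUFA7, TMEM189 and UBE2V1, while DDX19B and CD320 did not follow. UBE2V1 did so by a small margin, 159.3 against 158.4 CPM. TSTD1, the other partner of AL591806.3, had no row and could not be followed. With the controls included there was no single pattern, as F11R and TMEM189 show, and none of these relations was tested.

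As a description over the 6 libraries and 11969 genes compared, the Pearson r of log2 CPM with IFI30 was highest for SPATA20 (0.989), ADARB1 (0.979) and AL359258.1 (0.975). For SQOR it was highest for OSGIN1 (0.997), CCT7 (0.994) and TTC1 (0.993).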

How the data were processed

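The values are expected counts deposited by the authors, 1 row per gene symbol and all whole (100%), for 3 KD and 3 control libraries. Salmon 0.11.2 is named in the submitters' processing notes, as are DESeq2 and hg38, without roles. Rounding and strand settings are not given in the sources read. Every row summed to at least 10.

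Groups follow the sample titles. Counts were tested over all genes with edgeR 4.0.16 quasi-likelihood (R 4.3.3, TMM, filterByExpr, a 2-group design, two-sided tests, p adjusted by Benjamini-Hochberg, threshold 0.05), after a test on simulated data. The SE is the log2 fold change divided by the square root of F. For locus sums, the 3 rows of a locus were replaced by their sum. Alternatives used DESeq2 1.42.0, limma 3.58.1 (voom), RLE or upper-quartile scaling, other filters, the replicate block and leaving out each library. GENCODE 29 (GRCh38) gave exons, words and joins, and 16651 of 17042 symbols matched 1 of its genes. Genes called overlapping share exonic bases with at least 2 protein-coding genes that do not overlap each other. Libraries of a group were no duplicates (chi-square per degree of freedom 1.90 to 6.79).

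Members and lists were chosen with earlier results of these data known. Named genes were the 6 members, of flanking genes and pathway lists those past the threshold and otherwise the 3 with the largest absolute log2 fold change, and of the genes in 1 group only and of the overlapping class the 5 with the most counts; genes named for an unadjusted p, and the pairs followed within KD, were chosen after their values were seen. Figures were drawn with matplotlib 3.10.9, and other steps used scipy 1.17.1 and pandas 2.3.3 in Python 3.11.15.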

Additional observations from a re-analysis of the deposited data

How the results depend on the processing

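PIK3R2, IFI30 and both locus sums kept their direction and stayed short of the threshold under every alternative run. Leaving out 1 library put the log2 fold change of PIK3R2 between 0.064 and 0.195, of IFI30 between 0.007 and 0.073, of BLOC1S6 between -0.038 and 0.068 and of SQOR between -0.186 and -0.124 (edgeR adjusted p 0.0234 to 0.319). Under the other alternatives the adjusted p of SQOR ran from 0.0671 to 0.16. Over all genes the number past the threshold ran from 139 (without KD replicate 2) to 542 (without control replicate 1), against 379, and was also under 200 without KD replicate 1 (194), KD replicate 3 (156) or control replicate 2 (165). No flanking gene passed under any alternative run. Of the pathway genes that are not members, 1 passed (CBS), 0 passed in DESeq2, limma-voom or without the filter, and 0 or 1, never CBS, with a library left out; the cause was not tested. Genes with counts in 1 group only numbered 2 with at least 50 counts in all and 1 with at least 100, and 18 to 33 with a library left out, against 14; fewer libraries to agree make that pattern easier to meet. With words of 51 bases, 95.1% of the words of AC090527.2 occurred in an overlapped gene, against 97.2% with 31. With the replicate block, 488 genes passed and no overlapped gene did. Both alternatives that add clone-named counts to a neighbour were chosen after seeing the data. Same-numbered KD and control libraries had deviations correlated by 0.0538, 0.101 and 0.0732, each library best with its own number. All other pairings lay between -0.0679 and -0.00687. These values are small, and whether the numbers mark pairs was not settled. The main fit therefore left the numbers out, with the block as an alternative. The counts of AC007192.1, 13 or 14 per control library, limit what can be said of transfers to IFI30 or PIK3R2.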
